A study of Mus musculus with 6 samples.

Results

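Slurp2, Crtac1, Aebp1, Xkrx, Rnd3 and Nhlh2, 6 protein-coding genes, were described in the mouse pituitary across 6 RNA-seq libraries. They were picked by name because their FPKM (a read density, fragments per transcript kilobase scaled by library size) was far higher in the adult Lhbcre library than elsewhere, so their height in that library is a description and not a finding. All 6 members were found, of 50348 gene names in the series. The libraries were 1 per group. Adult Tshbcre, Ghcre and Lhbcre mice carried Cre, named for the beta subunit genes of thyrotropin and luteinizing hormone and for the growth hormone gene, together with the Cre-activated reporter ROSAYFP. Their glands, taken at 7 weeks, were pooled by genotype (42, 12 and 7 glands in that order) and sorted for fluorescent cells. A second Tshbcre pool held 5 glands from postnatal day 7 (P7). The 2 comparison libraries were nontransgenic whole glands, a single adult gland and 8 P7 glands, which carried neither Cre nor reporter. The extraction text in the labels describes collagenase dispersal and sorting for every sample. A lineage reporter marks cells that used the driver gene at any time, so a sorted pool can hold cells that no longer use it.

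Gonadotropes secrete the hormones LH and FSH, which act on the gonads. They answer to gonadotropin-releasing hormone, and they share the alpha glycoprotein subunit Cga with thyrotropes. The 6 genes have separate known roles. Slurp2, Crtac1 and Aebp1 encode secreted or matrix proteins, Xkrx encodes a membrane protein of the XK family, Rnd3 encodes an atypical small GTPase, and Nhlh2 encodes a basic helix-loop-helix (bHLH) transcription factor known for its part in fertility and body weight.

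The labelled cell type was checked against gonadotrope markers. Of 16 markers, 12 reached 1 scaled FPKM in the Lhbcre library or the adult whole gland, and 4 of the 12 (Cga, Gnrhr, Nr5a1 and Nr0b1) were at least 4-fold higher in Lhbcre, with none as much lower (median log2 difference 1.73, against 0.0044 over all genes). Foxl2, a defining gonadotrope factor, and Dmp1 were listed at 0 in Lhbcre, and Foxl2 also in the adult whole gland and in P7 Tshbcre. Against adult Tshbcre, 13 of the 16 reached that level in either library. None was at least 4-fold higher in Lhbcre and 2 were as much lower (median -0.84, against 0.022 over all genes). Those 2 were Fshb (216 against 928, with 180 in the adult whole gland) and Foxl2 (0 against 22.1). Lhb itself stood at 2198 in Lhbcre, at 2904 in adult Tshbcre and at 637 in the adult whole gland. The 16 markers summed to 6600 there, 11097 in adult Tshbcre and 11587 in P7 Tshbcre, against 1771 and 1235 in the adult and P7 whole glands. Most of each of these Tshbcre and Lhbcre sums was Cga, which thyrotropes also make. Without Cga the sums were 2951 in Lhbcre, 4551 in adult Tshbcre, 1994 in P7 Tshbcre, and 967 and 486 in the whole glands. No source used here gives the sex of the animals. The female transcript Xist was at 29.4 in Lhbcre and at 0.11 and 0.06 in adult Tshbcre and adult whole gland, while Y-linked Ddx3y was at 0.012 in Lhbcre and at 3.20 and 2.61 in those 2. Of the other Y-linked genes, Kdm5d (0.0079 against 3.23 and 3.04) and Eif2s3y (0.50 against 6.17 and 10.3) were lower in Lhbcre than in both, and Uty (0.631) lay between adult Tshbcre, where it was listed at 0, and the adult whole gland (2.07). Driver lineage and sex therefore cannot be told apart between the Lhbcre library and these adult libraries. Both P7 libraries held both transcripts (Xist 62.6 and 17.0, Ddx3y 2.09 and 2.12 in P7 Tshbcre and P7 whole gland). Age and sex likewise cannot be told apart between the P7 libraries and adult Tshbcre or the adult whole gland.

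Levels are scaled FPKM, which is the deposited FPKM summed over a gene's annotated transcripts and divided by 1 factor per library. Differences are of log2(scaled FPKM + 1), and a fold is on that scale, which understates the change of low genes. Each group is a single library, so nothing is replicated or tested. The bounds printed after a level are the deposited bounds, which cover counting and assignment within the library and nothing between animals. In bulk RNA, fewer cells of a type and less RNA per cell cannot be told apart. Relative depth, read from the ratio of coverage to FPKM, ran from 1 in the adult whole gland to 2.23 in Lhbcre and 2.73 in Ghcre. The Ghcre table ended within chromosome 5 and did not list Xkrx, which was treated as not measured there.

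Against the adult whole gland, 5 of the 6 genes were at least 4-fold higher in Lhbcre, and Rnd3 was 3.66-fold higher. The share of all 16452 genes that far above the whole gland was 3.85%, a background from which nothing is read, since the rule used this contrast. The same fold was reached by 5 of 6 against adult Tshbcre (background 4.33%), by 5 of the 5 listed against Ghcre (background 4.2%), where Crtac1 was listed at 0, by 4 of 6 against P7 Tshbcre (background 4.8%) and by 4 of 6 against the P7 whole gland (background 3.7%). Against every other library at once, only Xkrx, Crtac1 and Aebp1 kept a margin of 4-fold. Genes with that margin made up 0.787% of 19447 genes and 0.285% of 12971 protein-coding genes. The margin of Aebp1 fell under 4-fold when the whole level of the overlapping gene Pold2 was added to it, a sum that does not isolate shared reads. Slurp2, Nhlh2 and Rnd3 were highest in Lhbcre too, with 1.91-fold to 2.29-fold margins over the library next in order. Aebp1, at 5.02-fold, was the member just inside the 4-fold line, and Nhlh2, at 2.29-fold, was the one just outside it.

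**Figure D1:**
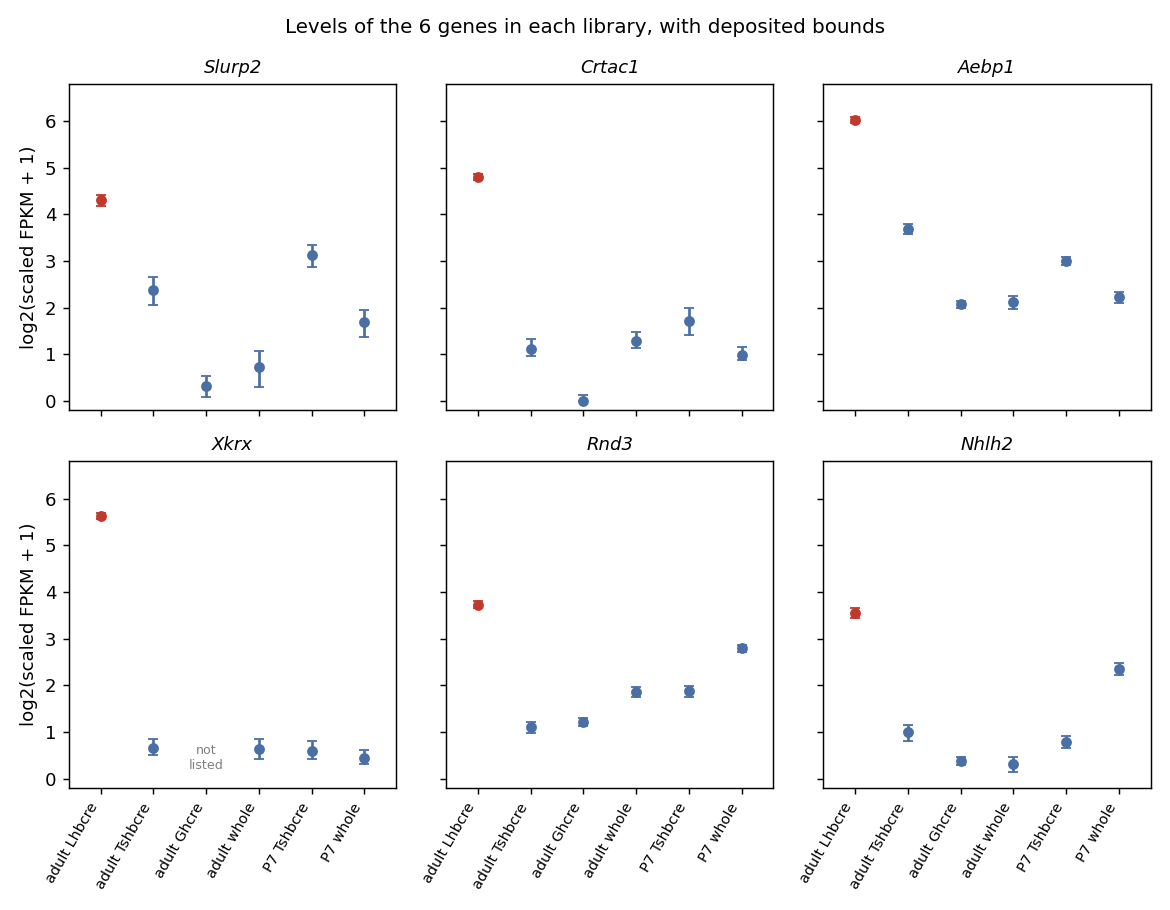
Level of each gene as log2(scaled FPKM + 1) on the vertical axis in each of the 6 libraries on the horizontal axis, with the Lhbcre library in red and bars for the deposited bounds. Every gene is highest in Lhbcre. Xkrx lies under 1 scaled FPKM in the other 4 libraries that list it. In the P7 whole gland Rnd3 and Nhlh2 (5.94 and 4.12 scaled FPKM) also rise above the adult libraries other than Lhbcre.

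Slurp2 encodes a small secreted protein of the Ly6 family that acts on nicotinic acetylcholine receptors. Its locus on mm39 is chromosome 15, 74614688 to 74618536, on the minus strand, with a single listed transcript (NM_001081961.1) of 464 nt and 3 exons. Slurp2 stood at 18.7 (bounds 17.1 to 20.3) in Lhbcre, 7.71 in P7 Tshbcre, 4.23 in adult Tshbcre, 2.22 in the P7 whole gland, 0.662 in the adult whole gland and 0.253 in Ghcre. The 2 Tshbcre pools thus came next after Lhbcre, and only the adult whole gland and Ghcre had overlapping bounds among neighbours in this order. The margin of Lhbcre over P7 Tshbcre was 1.18 (2.26-fold), and over the adult whole gland 3.57 (11.8-fold). Slurp2 was also higher in each Tshbcre pool than in the whole gland of the same age, by 1.65 in adults and 1.44 at P7. No member reached 4-fold in these contrasts of Tshbcre with whole gland (background 3.22% in adults and 3.26% at P7), which the rule did not use. The bounds of Slurp2 were wide where its level was low, reaching 75.6% of the value in Ghcre and 64.6% in the adult whole gland.

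Lynx1, the next gene on the same strand, encodes a membrane-anchored Ly6 protein that binds nicotinic receptors. Its 3′ end lies 1168 bases from the Slurp2 locus, and it does not overlap that locus. Lynx1 stood at 16.1 (bounds 15.7 to 16.5) in Lhbcre, 6.46 in adult Tshbcre, 4.45 in the P7 whole gland, 3.14 in the adult whole gland, 2.19 in P7 Tshbcre and 1.05 in Ghcre. Both neighbours were thus highest in Lhbcre, but their order in the other libraries differed: Slurp2 was next highest in P7 Tshbcre, where Lynx1 was next to lowest. The difference of Lynx1 between Lhbcre and the adult whole gland was 2.05 (4.13-fold). Lypd2, the Ly6 gene on the other side, lay 8043 bases away and was listed at 0 in Lhbcre, with levels of 0.12 and 1.39 in the adult and P7 whole glands.

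The wider Ly6 family, taken as a list, did not share the height of Slurp2 and Lynx1. Among 8 of 16 other Ly6 genes that reached 1 scaled FPKM in Lhbcre or the adult whole gland, Lynx1 was the 1 gene at least 4-fold higher in Lhbcre, and 3 were at least 4-fold lower, where 5.46% of all genes were that much lower. Those 3 were Thy1 (2.93 against 29.6), Ly6a (1.51 against 14.3) and Ly6e (16.8 against 76.9), and the median of the 8 was -0.69. Nicotinic receptor subunits were the related list with the highest median. Of 5 subunits at that level, 3 were at least 4-fold higher in Lhbcre and none as much lower (median 2.06), where 3.85% of all genes were that much higher. Chrna4 (difference 2.20), Chrna9 (5.91 against 0.309) and Chrna6 (3.17 against a listing of 0) were the 3. Chrnb3 went the other way, at 4.44 in Lhbcre against 11.5 (difference -1.20). Against adult Tshbcre the same list gave 1 of 5 (Chrna9, 0.694 there) and a median of 0.14, with Chrna4 (8.24) and Chrna6 (7.72) higher in that pool than in Lhbcre. Chrna9 was 2.03 above every other library that lists it, and Chrnb2 (17.6 in Lhbcre) was also highest there, 0.53 above adult Tshbcre.

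Crtac1 encodes cartilage acidic protein 1, a secreted protein also known as LOTUS, which blocks the Nogo receptor on axons. Its locus is chromosome 19, 42271474 to 42421405, on the minus strand. Crtac1 stood at 26.7 (bounds 25.5 to 28.1) in Lhbcre, 2.27 in P7 Tshbcre, 1.42 in the adult whole gland, 1.16 in adult Tshbcre and 0.985 in the P7 whole gland, and was listed at 0 in Ghcre. Among the 4 libraries between Lhbcre and Ghcre, bounds overlapped between neighbours in this order. P7 Tshbcre (bounds 1.66 to 3.01) nevertheless lay above adult Tshbcre (0.963 to 1.52) and the P7 whole gland (0.843 to 1.23). Lhbcre stood 3.08 (8.48-fold) above P7 Tshbcre, rank 11 of 12971 protein-coding genes by this margin, and 3.52 (11.4-fold) above the adult whole gland. Of 12 listed transcripts, all of the Crtac1 FPKM in Lhbcre, adult Tshbcre and the P7 whole gland was assigned to NM_145123.5 (2623 nt, 15 exons). In the adult whole gland all of it went to NM_001356588.1, which starts 294 bases further in, and in P7 Tshbcre it was split over 3 predicted transcripts (30.0%, 39.8% and 30.2%). The FPKM behind these shares was low outside Lhbcre. Transcripts assembled without a gene name also lay within the locus, 87 of them in Lhbcre, and do not enter these levels. Those of at least 200 nt summed to 29.4 scaled FPKM in Lhbcre and 8.62 in the P7 whole gland. The sums were 7.99 in adult Tshbcre, 6.36 in the adult whole gland, 5.92 in Ghcre and 0 in P7 Tshbcre. Their part in the Crtac1 signal was not tested.

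The RefSeq promoter table for the older build GRCm38.p6 holds 2 Crtac1 starts, also 294 bases apart. The outer one is shown because its place matches the start of the transcript that took the Lhbcre signal. It covers chr19:42431739-42432038 on that build, minus strand, from 250 bases before the start to 50 after, and is 76.7% G and C against a median of 52.7% over all windows. Capitals mark an E-box, CANNTG, the motif read by bHLH factors such as Nhlh2, and a TATAAA.
Crtac1: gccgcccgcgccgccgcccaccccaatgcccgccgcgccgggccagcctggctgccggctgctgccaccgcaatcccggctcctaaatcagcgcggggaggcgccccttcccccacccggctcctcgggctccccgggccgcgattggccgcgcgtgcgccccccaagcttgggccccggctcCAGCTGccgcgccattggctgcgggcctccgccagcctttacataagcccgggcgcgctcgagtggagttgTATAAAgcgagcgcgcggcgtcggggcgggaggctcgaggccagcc
Both strands were searched in 32851 windows of 300 bases, where 72.3% held CANNTG and 13.6% held TATAAA, so an E-box is common in windows of this length. The 2 motifs do not overlap each other in this window.

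The loci of 3 lncRNAs overlap Crtac1, and in Lhbcre none carried a level that could be set beside it. Gm41848 was at 0.579 in Lhbcre and under 0.13 in the other libraries, and Gm34347 was listed at 0 in all. Gm34299 was listed at 0 in Lhbcre but stood above Crtac1 in the P7 whole gland (1.496 against 0.985). It was also above Crtac1 in Ghcre (0.937 against a listing of 0). In adult Tshbcre, the adult whole gland and P7 Tshbcre it was below Crtac1 (0.229, 0.254 and 0.317). The coding neighbours Golga7b (1.44 in Lhbcre, 1.58 in the adult whole gland) and R3hcc1l (1.85 against 2.44) differed by less than 4-fold. Of the 9 other genes of the Nogo receptor pathway, 5 reached 1 scaled FPKM, 1 was at least 4-fold higher in Lhbcre than in the adult whole gland and none as much lower (median -0.79). That gene was Omg, which encodes a myelin ligand of the Nogo receptor, at 4.69 against a listing of 0. Omg was also at 4.51 in adult Tshbcre and 4.18 in P7 Tshbcre. The ligand gene Rtn4 stood at 7.10 in Lhbcre and 14.1 in the adult whole gland, and the receptor gene Rtn4r at 0.696 and 1.93.

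Aebp1 encodes a secreted carboxypeptidase-like protein (ACLP) that binds collagen in the extracellular matrix, and also a shorter form described as a transcriptional repressor. Its locus is chromosome 11, 5806085 to 5822248, on the plus strand. Aebp1 had the highest level of the 6 genes. It stood at 63.9 (bounds 60.9 to 66.8) in Lhbcre, 11.9 in adult Tshbcre, 6.99 in P7 Tshbcre, 3.66 in the P7 whole gland, 3.34 in the adult whole gland and 3.20 in Ghcre. The 2 Tshbcre pools again came next, and the last 3 libraries had overlapping bounds. The margin over adult Tshbcre was 2.33 (5.02-fold), and the difference from the adult whole gland was 3.90. Adult Tshbcre in turn stood 1.58 above the adult whole gland, and P7 Tshbcre 0.78 above the P7 whole gland.

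Nearly all Aebp1 reads have to be divided between 2 transcripts with the same ends, NM_001291857.2 (4075 nt) and NM_009636.3 (4072 nt), which differ by 3 nt over 21 exons. NM_001291857.2 took 80.4% in Lhbcre, 28.0% in adult Tshbcre, 0% in Ghcre, 43.5% in the adult whole gland, 100% in P7 Tshbcre and 57.2% in the P7 whole gland. These shares have no common order with the gene's level, and they rest on few bases. The RefSeq window at the Aebp1 start held none of the 5 motifs searched. Besides those named above they were the nuclear receptor half-site AGGTCA (in 16.3% of all windows), a GATA factor motif spelled AGATAA (in 11.2%), and TAATCC, read by PITX factors (in 7.06%).

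At its 3′ end Aebp1 overlaps Pold2, a DNA polymerase delta subunit gene on the opposite strand, by 69 bases, 1.69% of the length of NM_001291857.2. Pold2 was listed at 0 in Lhbcre, and at 7.80 in adult Tshbcre, 12.6 in Ghcre, 9.23 in the adult whole gland, 6.99 in P7 Tshbcre and 6.88 in the P7 whole gland. The library that was highest for Aebp1 was thus the only one of the 6 that listed its overlapping neighbour at 0. No source used here says if strand entered the counting, so reads of the shared stretch cannot be told apart. Summed, the 2 genes stood at 63.9 in Lhbcre, 19.7 in adult Tshbcre, 15.8 in Ghcre, 14.0 in P7 Tshbcre, and 12.6 and 10.5 in the adult and P7 whole glands. The margin of the sum over adult Tshbcre was 1.65, under 4-fold, where that of Aebp1 alone was 2.33, and the difference from the adult whole gland fell from 3.90 to 2.26. Because Pold2 was at 0 only in Lhbcre, adding its whole level lowers the margin however reads of the shared stretch were assigned. The part of that stretch in the Aebp1 level was not tested.

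**Figure D2:**
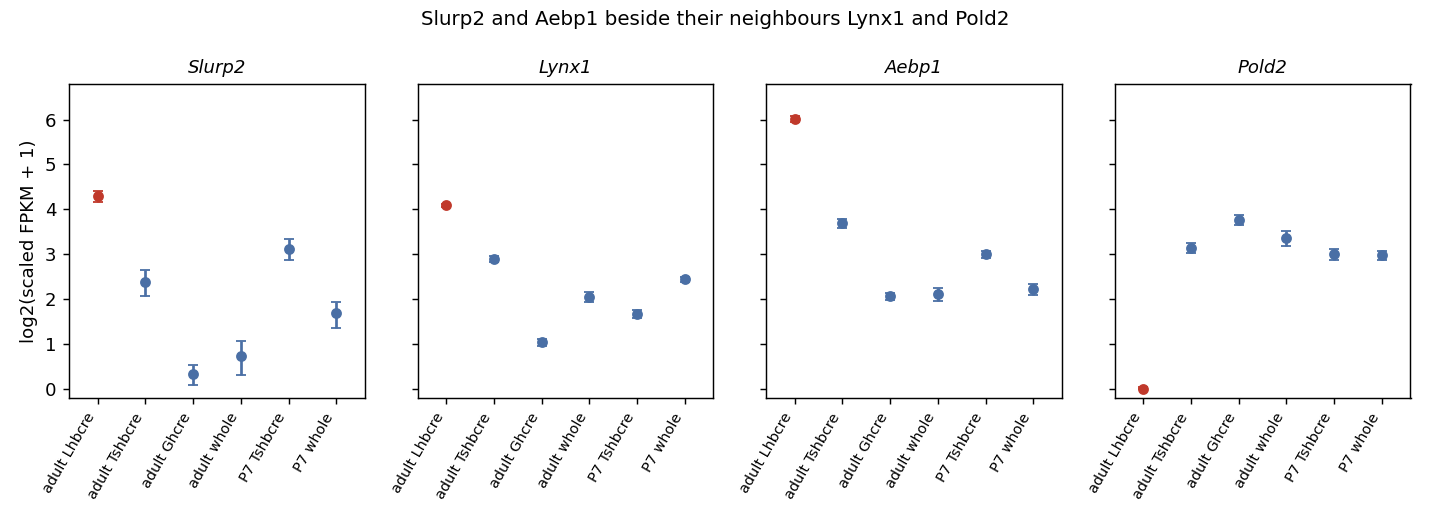
Slurp2 and Aebp1 beside Lynx1 and Pold2, as log2(scaled FPKM + 1) in each library, with Lhbcre in red and bars for the deposited bounds. Lynx1, 1168 bases from Slurp2, is also highest in Lhbcre, whereas Pold2, which shares 69 bases with Aebp1, is listed at 0 there and lies between 6.88 and 12.6 scaled FPKM elsewhere.

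Aebp1 is also expressed by fibroblasts, so mesenchymal markers were set beside it. All 8 such markers reached 1 scaled FPKM in Lhbcre or the adult whole gland, and 5 of the 8 were at least 4-fold lower in Lhbcre (median -2.12). Their sum was 28.5 in Lhbcre, 26.7 in adult Tshbcre, 12.0 in P7 Tshbcre, and 118 and 280.3 in the adult and P7 whole glands, and 3.03 over the 5 listed in Ghcre. Lum was listed at 0 in Lhbcre and Col1a1 stood at 0.616, while Col1a2 was at 23.2 against 32.7 in the adult whole gland. The part of such cells in the Aebp1 level was not tested. In the carboxypeptidase E family, whose fold Aebp1 shares, 5 of 7 genes reached 1 scaled FPKM, none was at least 4-fold higher in Lhbcre and 2 were as much lower (median -1.16). Those were Cpxm1 (listed at 0 against 3.22) and Cpxm2 (1.69 against 12.7). Cpe, the enzyme that trims prohormones, stood at 210.9 against 102.4, a difference of 1.04.

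Xkrx encodes an XK-related membrane protein whose role is little known. Its locus is X chromosome, 133049786 to 133086747, on the minus strand. Xkrx stood at 48.7 (bounds 46.5 to 50.9) in Lhbcre, 0.584 in adult Tshbcre, 0.546 in the adult whole gland, 0.520 in P7 Tshbcre and 0.367 in the P7 whole gland. The 4 lower libraries had overlapping bounds throughout, so Xkrx was high in a single library and alike low in the others. Its margin over the next library was 4.97 (31.4-fold), rank 1 of 12971 protein-coding genes. Among the 13557 genes above 0 in every library that lists them it ranked 2, after the pseudogene Gm19193, and 13 such genes (0.0959%) had a margin of 4-fold. Xkrx is X-linked, and the Lhbcre library differed from adult Tshbcre and adult whole gland in Xist (29.4 against 0.11 and 0.06), with 62.6 in P7 Tshbcre and 17.0 in the P7 whole gland. The part of sex in the Xkrx level was not tested.

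The Xkrx transcripts differed as much as its level. Of 8 listed transcripts, the whole of the Lhbcre signal was assigned to the predicted XM_036161993.1 (2962 nt), and the other 7 were listed at 0. XM_036161993.1 starts 23039 bases before NM_183319.3 (3907 nt, 3 exons), the transcript that took 84.3% in adult Tshbcre, 41.1% in the adult whole gland, 16.4% in P7 Tshbcre and 62.8% in the P7 whole gland. The rest lay on XM_006528570.5 and XM_036161992.1, except in the P7 whole gland, where XM_036161993.1 took 23.3% (0.085 scaled FPKM) and XM_006528570.5 took 13.9%. XM_036161992.1 starts at nearly the same place as XM_036161993.1 (133086743 against 133086747). It took 28.9% in the adult whole gland and 25.5% in P7 Tshbcre, at 0.158 and 0.133 scaled FPKM. Signal assigned to a transcript with the far start was thus not particular to Lhbcre. NM_183319.3 conversely was at 0.492 in adult Tshbcre and had an upper bound of 0.0049 in Lhbcre. With exon-level reads not used here, the start in use was not tested. The RefSeq table of GRCm38.p6 lists 6 Xkrx transcripts and not XM_036161993.1, so no window of its start is shown. The nearest genes at 1 scaled FPKM or more, Cstf2 at 62214 bases and Trmt2b at 36956 bases, were level (7.08 against 5.42 and 3.66 against 4.21). None of 5 XK family genes that reached 1 scaled FPKM was 4-fold apart in either direction (median 0.21), with Xkr4 at 5.74 against 4.60.

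**Figure D3:**
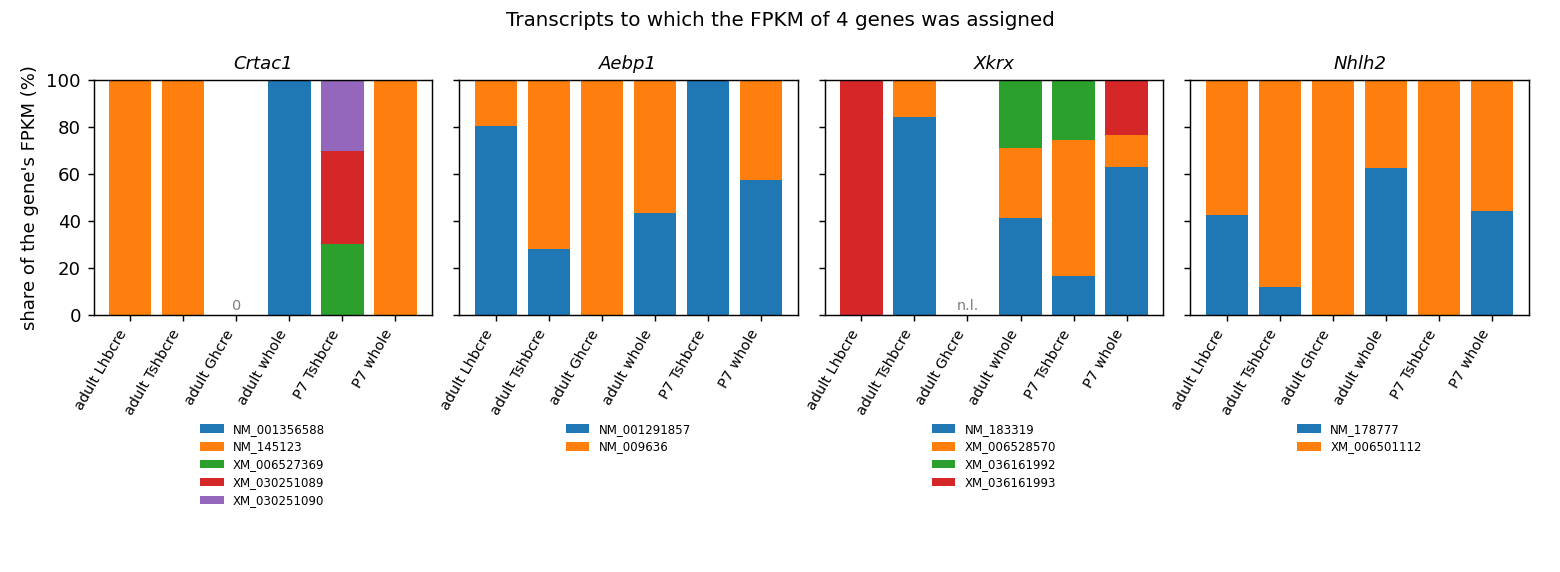
Share of each gene's FPKM (vertical axis, percent) assigned to each annotated transcript in the 6 libraries, for the 4 genes with more than 1 transcript above 0, where 0 marks a gene listed at 0 and n.l. a gene not listed. Lhbcre is the 1 library with all Xkrx signal on XM_036161993, whereas its Nhlh2 split of 42.5% to 57.5% is close to that of the P7 whole gland, 44.2% to 55.8%.

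Rnd3 encodes a small GTPase that stays bound to GTP and is known for its effects on the actin cytoskeleton. Its locus is chromosome 2, 51020451 to 51039123, on the minus strand, with 1 listed transcript (NM_028810.2, 2827 nt, 5 exons). The RefSeq window of its start is printed because the gene has a single start and the window holds both an E-box and a TATAAA, in capitals. It covers chr2:51149062-51149361 on GRCm38.p6, minus strand.
Rnd3: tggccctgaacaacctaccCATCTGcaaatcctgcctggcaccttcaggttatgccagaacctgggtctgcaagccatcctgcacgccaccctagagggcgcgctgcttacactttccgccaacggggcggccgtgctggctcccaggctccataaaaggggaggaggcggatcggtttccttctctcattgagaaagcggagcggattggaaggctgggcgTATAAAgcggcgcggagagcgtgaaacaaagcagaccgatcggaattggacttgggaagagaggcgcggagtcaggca
Rnd3 stood at 12.3 (bounds 11.6 to 12.9) in Lhbcre, 5.94 in the P7 whole gland, 2.67 in P7 Tshbcre, 2.62 in the adult whole gland, 1.33 in Ghcre and 1.14 in adult Tshbcre. The order was unlike that of the secreted members: the P7 whole gland came next after Lhbcre, and adult Tshbcre was lowest. The margin over the P7 whole gland was 0.93 (1.91-fold), and the difference from the adult whole gland was 1.87 (3.66-fold). Rnd3 was lower in Tshbcre pools than in whole glands, by 0.76 in adults and 0.92 at P7, and 0.94 higher in the P7 than in the adult whole gland, all under 4-fold.

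The values of Rnd3 depended on transcripts assembled without a gene name. The Lhbcre library held 47 of them within the locus, 5 of at least 200 nt. Adult Tshbcre held 10, also with 5 that long, and Ghcre held 25, with 3 that long. The adult whole gland, the P7 whole gland and P7 Tshbcre held 5, 10 and 15, with 0 that long in each. Adding those of at least 200 nt weighted by length, an alternative chosen after seeing the data, gave 27.4 in Lhbcre, 5.94 in the P7 whole gland, 5.16 in Ghcre, 3.73 in adult Tshbcre, 2.67 in P7 Tshbcre and 2.62 in the adult whole gland. The difference from the adult whole gland then became 2.97 and the margin 2.04, both past 4-fold. Added unweighted, they gave a difference of 5.56 but a margin of 1.78, under 4-fold, with 169.8 in Lhbcre and 48.7 in Ghcre, the next library. Unnamed transcripts of that length made up 4.25% of all unnamed ones in Lhbcre and 65.8% in the adult whole gland, and the part of this unevenness in the Rnd3 values was not tested. No other gene overlaps Rnd3, and the nearest ones at 1 scaled FPKM or more are the pseudogenes Gm13487 at 607400 bases and Gm13493 at 721810 bases.

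Nhlh2 is the one transcription factor among the 6. Its locus is chromosome 3, 101917425 to 101922808, on the plus strand, with NM_178777.3 (3353 nt, 2 exons) and the predicted XM_006501112.4 (2364 nt). The RefSeq window of the start is shown because Nhlh2 has 4 E-boxes in it, the most of the 5 members with a window. It covers chr3:102009895-102010194 on GRCm38.p6, plus strand. Capitals mark the 4 CANNTG matches and TTATCT, which is AGATAA read on the other strand, the GATA factor motif.
Nhlh2: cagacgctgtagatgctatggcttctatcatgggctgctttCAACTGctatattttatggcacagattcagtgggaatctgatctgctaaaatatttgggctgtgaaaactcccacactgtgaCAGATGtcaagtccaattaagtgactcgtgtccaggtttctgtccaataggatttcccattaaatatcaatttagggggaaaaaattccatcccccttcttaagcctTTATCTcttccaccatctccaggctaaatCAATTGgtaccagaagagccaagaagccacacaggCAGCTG
Crtac1, Rnd3 and Xkrx had 1 E-box each, so 4 of the 5 members with a window held the motif, against 72.3% of all windows. A match describes letters only, and no binding was measured.

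Nhlh2 stood at 10.7 (bounds 9.93 to 11.5) in Lhbcre, 4.12 in the P7 whole gland, 0.990 in adult Tshbcre, 0.726 in P7 Tshbcre, 0.294 in Ghcre and 0.245 in the adult whole gland. Only Lhbcre and the P7 whole gland were above 1. The margin of Lhbcre over the P7 whole gland was 1.20 (2.29-fold), and over the adult whole gland 3.24 (9.42-fold). Nhlh2 was the only member that differed 4-fold between whole glands of the 2 ages, a contrast the rule did not use. The P7 gland stood 2.04 (4.11-fold) above the adult gland, where 3.31% of 15690 genes were that much higher at P7. The deposited bounds put this difference between 1.74 and 2.34, which spans the 4-fold line. Xist also differed between these libraries (17.0 at P7 and 0.06 in the adult), so age and sex cannot be told apart in this contrast. Its 2 transcripts kept a like split in the 2 libraries with signal, 42.5% NM_178777.3 in Lhbcre and 44.2% in the P7 whole gland. The nearest genes at 1 scaled FPKM or more, Slc22a15 at 85655 bases (1.41 in Lhbcre) and Vangl1 at 138090 bases (2.99), were under 4-fold from the adult whole gland.

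Of 11 listed partners and targets of NHLH factors, 8 reached 1 scaled FPKM and none was 4-fold apart between Lhbcre and the adult whole gland (median -0.57). The bHLH partners Tcf3, Tcf4 and Tcf12 had lower values in Lhbcre, with differences of -0.77, -0.69 and -0.45. Pcsk1, which encodes the prohormone convertase known as an Nhlh2 target, stood at 40.3 in Lhbcre against 16.5, a difference of 1.24. It was higher still in both Tshbcre pools (48.7 and 48.9), where Nhlh2 was under 1, and at 6.38 in the P7 whole gland. Mc4r, another known target, was listed at 0 in Lhbcre. Nhlh2 and Crtac1 are known from neurons, and the 4 neuron markers summed to 61.0 in Lhbcre and 59.3 in the adult whole gland. Most of each sum was Snap25 (51.9 and 48.3), which also stood at 39.1 in Ghcre and 68.0 in P7 Tshbcre, so the sums say little about neurons. Gnrh1 was listed at 0 in Lhbcre, and none of the 3 markers at 1 scaled FPKM or more was 4-fold apart.

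**Figure D4:**
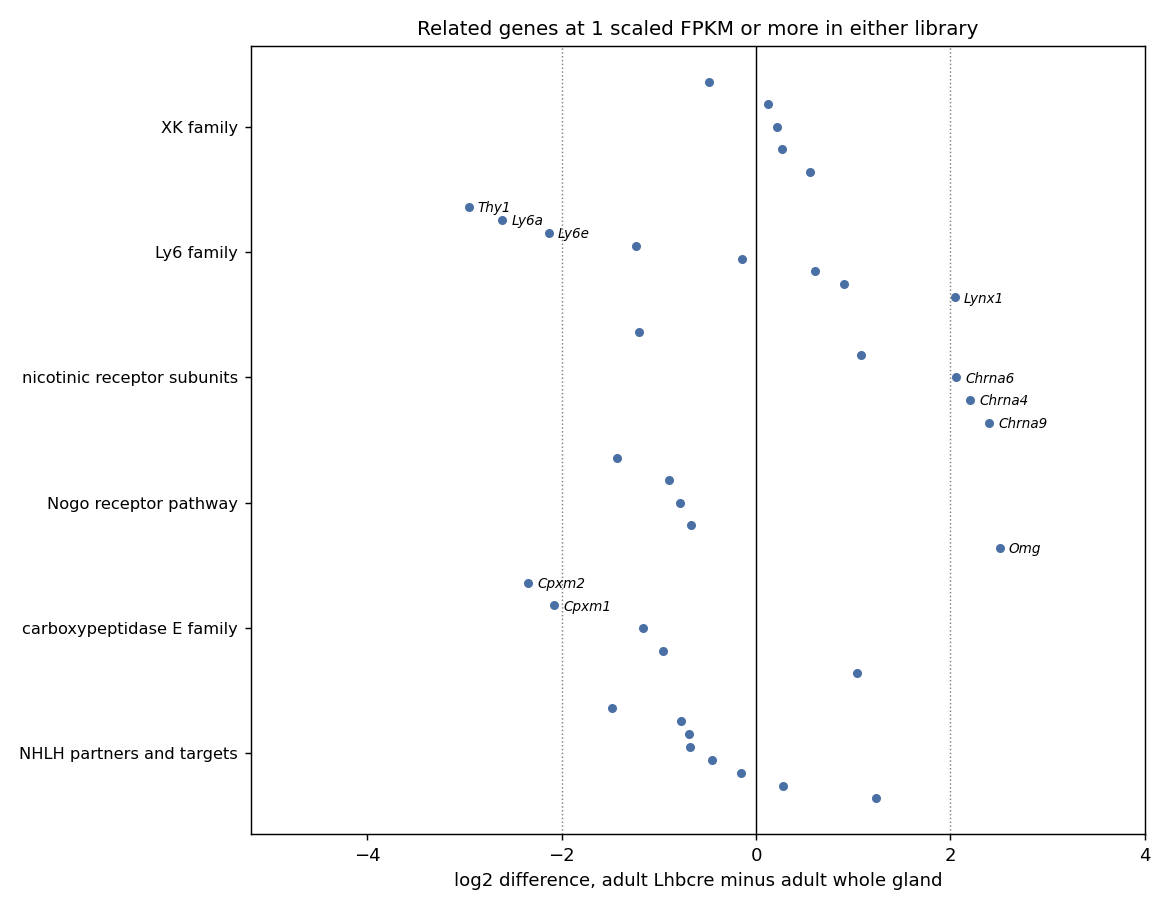
Log2 difference of scaled FPKM + 1 between adult Lhbcre and adult whole gland (horizontal axis) for the genes of 6 related lists that reach 1 scaled FPKM in either library, 1 point per gene, with dotted lines at 4-fold and names for genes beyond them. Nicotinic receptor subunits have 3 of 5 genes beyond the upper line, and none of the XK family or NHLH genes lies beyond a line.

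The members resembled each other only in part. By distance of log2 levels over the libraries that list both genes, Slurp2 was the 6th nearest gene to Crtac1 and Nhlh2 the 14th, while Aebp1 was 3729th. For Nhlh2 the nearest member was Rnd3, in place 73. The 3 genes nearest to Nhlh2 over 6 libraries were Lrrc17 (distance 0.83), the bHLH gene Neurod1 (1.19) and Vcan (1.30), all with their next highest level in the P7 whole gland. The 3 nearest to Crtac1 were Gal (1.75), Rims4 (1.85) and Dlgap1 (1.89). Slurp2 had Pygm (1.22), Cept1 (1.43) and Nefm, Aebp1 had Ggh (1.60), Pfdn6 (2.06) and Ppp2r2c (2.27), and Rnd3 had Nfyc (0.90), Nuak1 (0.91) and Psmg1 (1.04). The 3 nearest to Xkrx, over the 5 libraries that list Xkrx, were the short RNAs Gm24246, Rnu1b6 and Mir486, listed at 0 in 4 of those libraries. In Ghcre, which did not enter the Xkrx distances, Gm24246 stood at 31.0 and Rnu1b6 at 32.7, and Mir486 was not listed. All these distances include the Lhbcre height that chose the members.

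**Figure D5:**
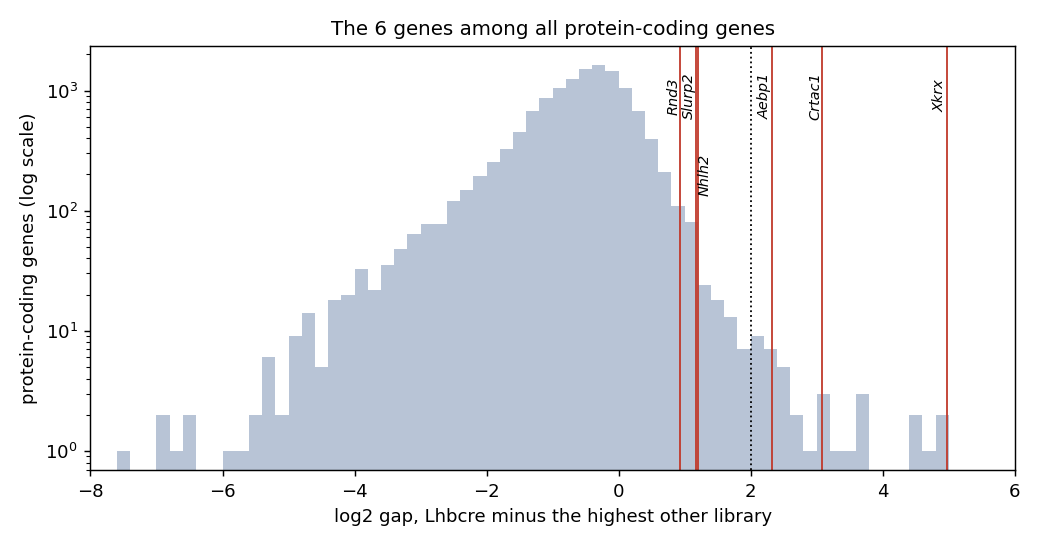
Distribution over 12971 protein-coding genes (vertical axis, log scale) of the log2 margin of the Lhbcre library over the highest other library (horizontal axis), with a red line for each of the 6 genes and a dotted line at 4-fold. Xkrx lies at the right end, Crtac1 and Aebp1 beyond the dotted line, and Slurp2, Nhlh2 and Rnd3 between 0.93 and 1.20.

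Placed among all genes, the margin of Lhbcre was led by other kinds of RNA. Of the 15 genes other than the 6 with the largest margin, none was protein-coding, 14 were at 0 in every other library that lists them and 14 had no transcript over 200 nt. They included the small nucleolar RNA LOC115488050 (72 nt, 3680 in Lhbcre) and Mir7031 (65 nt, 2917). The exception was Gm19193, with 523 in Lhbcre and at most 0.626 elsewhere. The part of short transcript length in the values of the others was not tested. Of all 153 genes with a 4-fold margin, 37 were protein-coding, and 7 of those were above 0 in every library that lists them. Those 7 were Xkrx, Aebp1, Adcy8, Ank1, Gal, Adprhl1 and Chrna9, and of these Adcy8, Ank1 and Adprhl1 were named after their values were seen. Adcy8, an adenylyl cyclase gene, stood at 7.58 in Lhbcre and at most 0.326 elsewhere, and Gal, which encodes the neuropeptide galanin, at 19.96 and at most 2.71. Crtac1 was not among the 7 because Ghcre listed it at 0.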

How the data were processed

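RNA from 6 mouse pituitary libraries, 1 per group taken from the labels, had been sequenced from 250 ng after ribosomal RNA depletion, per the labels' protocols. The submitters' processing notes name FastQC, Bowtie2, Cufflinks and the build mm39 and give no versions. The deposited tables give 1 line per transcript with FPKM, its lower and upper bounds, a status and a coverage signal, all computed by the authors. Coverage was used only to read relative depth. No source used here gives read numbers or strand handling, and 205 lines without an OK status were kept.

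FPKM was summed over annotated transcripts of a gene name and divided by median-of-ratios factors over 5808 genes whose FPKM was at least 1 throughout (Python 3.11.15, pandas 2.3.3, numpy 2.4.6). A pseudocount of 1 was used. A 4-fold difference counted only where the upper level was at least 1 scaled FPKM. Ranks over all genes used the margin over the highest other library. The calculation was tested on simulated data. Names, biotypes, strands, exon counts and promoter windows came from GRCm38 annotation (5 of 6 genes had a window, from RefSeq), while gene coordinates are those of the files, counted from 1.

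The members, the 6 related lists with 61 genes and the 13 marker lists were chosen with earlier results of these data known. Besides members, the text names overlapping and nearest neighbours, the genes with the 15 largest margins at 5 scaled FPKM or more, the 3 genes nearest to each member by distance, and genes of those lists. One further list chosen with them is not reported here. Alternatives changed the scaling, the pseudocount, the filter and the transcripts summed.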

Additional observations from a re-analysis of the deposited data

Results flagged for a closer look

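The difference between the Tshbcre pool and the whole gland of the same age had opposite signs at the 2 ages for 2 of the 6 genes. For Crtac1 it was -0.16 on the log2 scale in adults (1.16 against 1.42 scaled FPKM) and 0.72 at P7 (2.27 against 0.985). For Nhlh2 it was 0.68 in adults (0.990 against 0.245) and -1.57 at P7 (0.726 against 4.12). With 1 library per group the difference between ages was not tested, and no member reached 4-fold in either contrast. The deposited bounds of Crtac1 overlapped between the 2 adult libraries.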

How the results depend on the processing

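No paired analysis was possible because each group has 1 library, and for the same reason no replicate could be left out. The count of members 4-fold above the adult whole gland (5) and above every other library (3) stayed within 1 of these values under every alternative run. The unweighted addition of unnamed transcripts left Crtac1 and Aebp1 unchanged in every library, although such transcripts lay in both loci (29.4 scaled FPKM for Crtac1 in Lhbcre). That alternative therefore says nothing about the stability of Crtac1 and Aebp1. The counts over all genes depended on the settings. Genes 4-fold higher in Lhbcre than in the adult whole gland numbered 633, and 1638 with a pseudocount of 0.1, 197 with a pseudocount of 5, 398 over coding RefSeq transcripts, 162 over genes above 0 and, added after seeing the data, 378 over protein-coding genes. Genes 4-fold above every other library numbered 153, and 332, 88, 39, 13 and 37 under the same settings. Of 104 single-gene values under alternatives, none changed sign and 43 moved beyond the deposited bounds. Rnd3 passed 4-fold over the adult whole gland with libraries at an equal sum (2.19), with a pseudocount of 0.1 (2.18) and with unnamed transcripts of 200 nt or more added unweighted (5.56). Nhlh2 fell under 4-fold there with a pseudocount of 5 (1.58). Adding unnamed transcripts unweighted lowered the margin of Xkrx from 4.97 to 2.21, next to 9.78 scaled FPKM in the adult whole gland. The cause was not tested. Depth limits the low levels most: the deposited bounds reached 75.6% of the value for Slurp2 in Ghcre, and neighbouring levels with overlapping bounds have no clear order.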
